A study of Danio rerio with 4 samples.

Results

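The transcripts of myb and mybl1, a pair of related DNA-binding transcription factors, were followed in sorted zebrafish (Danio rerio) cells. The cells came from tissue that held the kidney, with and without a morpholino against the microRNA miR-34b. The members are all probe sets whose only gene symbol in the array annotation is myb or mybl1. There is 1 probe set for each gene (myb is NCBI Gene 30519 and mybl1 is 558540), which makes 2 of the 15617 probe sets on the array and 2 of the 8793 genes named by it. Both were among the 11626 probe sets tested after control probe sets and the dimmest 25% had been left out. With 1 probe set per gene, no result on either transcript could be repeated with another set of probes. The annotation ties the myb probe set to a RefSeq mRNA record and that of mybl1 to an expressed sequence tag.

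All embryos were of the AB strain carrying Tg(cmyb:EGFP), a transgene in which the promoter of myb drives EGFP, and were taken at 3 days after fertilization. The control group received a control morpholino (n = 2 arrays) and the other group a morpholino against miR-34b (n = 2 arrays, called morphants here). A morpholino is an antisense oligomer that blocks an RNA. For each array 20000 GFP-positive cells were sorted from trypsin-digested blocks of tissue that held the kidney, and the labels name them multiciliated cells. The gate takes any cell in which the myb promoter is or was active, so all values describe RNA within cells that passed it, in both groups. Nothing in the labels says how many embryos were pooled for a sort.

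MYB proteins bind DNA through repeats of a helix-turn-helix domain and switch on transcription together with acetyltransferases. In vertebrates myb is best known from blood stem and progenitor cells, and it also acts early in the program by which a post-mitotic epithelial cell makes many centrioles and many motile cilia. The vertebrate family has the further members mybl1, known in mouse as a regulator of male meiosis, and mybl2, which drives cell cycle genes as part of the MuvB complex. MicroRNAs of the miR-34 family are abundant in multiciliated cells, and MYB mRNA has been described as a target of a member of that family in human cells.

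The trimmed mean signal was 500.1 on every array, so the values as deposited had been brought to a common level, and the array medians lay between 7.18 and 7.29 (log2). The brightest of 17 tag control probe sets, for sequences that zebrafish lacks, read 3.71 to 4.93 per array. A control probe set named for an EGFP vector read 1.61 to 3.74, within the range of the tag controls, and the sources used here do not say which part of the vector its probes match. The poly-A spike-in controls averaged 9.93 and 9.92 on control arrays against 9.53 and 8.73 on morphant arrays. Of 13 multiciliated cell markers with a probe set, 12 passed the filter and 0 of these were listed at 0, while dnah9, an outer arm dynein heavy chain, was too dim to be tested. Marker lists of other cells were also read in these sorted cells, and their part in the results was not tested. The mean log2 signals ran from 11.75 to 12.16 over the arrays for 9 myeloid and leukocyte genes and from 12.27 to 13.10 for 12 skeletal muscle genes. Among the 9, marco read 3.98 on control replicate 2 and 7.65 on morphant replicate 2. The precision is limited by having 4 arrays, and in bulk samples fewer cells of a type and less RNA per cell cannot be told apart.

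The transcript of myb did not pass the test. It read 11.54 and 11.21 (log2 signal) with the control morpholino against 11.03 and 10.88 with the miR-34b morpholino, or 11.37 ± 0.23 against 10.96 ± 0.10 (mean ± SD, n = 2 each). Both morphant arrays lay below both control arrays. The gap of 0.18 between the groups was smaller than the 0.32 between the control arrays themselves. Such a lower placing of both morphant arrays was found for 24.7% of all probe sets tested. In linear units the signal was 2968 and 2373 in controls against 2092 and 1889 in morphants. The log2 fold change was −0.42 ± 0.19 (SE; limma, Benjamini-Hochberg adjusted p = 0.349), and 0.12% of all probe sets were called lower. In this fit the 95% interval of the change ran from −0.90 to 0.07, that is from 0.535-fold to 1.05-fold. A moderate decrease lies within it. The upper end (log2) was 0.16 with the dim probe sets kept and 0.35 without moderated variances, so larger increases lie within those intervals. It was below 0 with median centring (−0.004), with 64 added to the signals (−0.03) and with a trended variance prior (−0.08). Whether the interval includes 0 thus depends on the setting, and myb did not pass under any of these. The probe set was bright on every array, above 91.5% to 95.1% of the probe sets that are not controls. Cells of both groups were sorted by activity of the myb promoter, so the gate favoured a bright myb signal, which is no separate result. The comparison of myb between the groups is likewise limited to cells that passed that gate.

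The 4 values of myb stood in the order control replicate 1, control replicate 2, morphant replicate 1, morphant replicate 2. The mean over the 5 tested relatives of myb and mybl1, described below, stood in that order too (7.93, 7.91, 7.73 and 7.69). None of these relatives did so by itself. The mean over 12 skeletal muscle markers stood in that order as well (13.10, 12.68, 12.62 and 12.27). Of these 12 markers, 6 stood in that order, while in the other 6 control replicate 2 read below morphant replicate 1. No other mean of a list used here stood in this order, and how many of all probe sets do was not counted. The log2 fold changes of all 12 markers were below 0. They lay between −1.19 for myod1, the muscle determination factor, and −0.07 for actc1b, an actin. In limma 0 of 12 passed, and 2 had an unadjusted p under 0.05. Of all 11626 probe sets tested, 2057 had an unadjusted p under 0.05, so such counts are to be read against that share. The part of muscle RNA, or of what moves with it, in the value of myb was not tested. The fold change of myb was −0.26 without control replicate 1 and −0.58 without control replicate 2, and it did not pass in either fit.

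The transcript of mybl1 rose when miR-34b was targeted. It read 8.46 and 8.52 (log2 signal) with the control morpholino against 9.67 and 9.82 with the miR-34b morpholino, or 8.49 ± 0.04 against 9.74 ± 0.11 (mean ± SD, n = 2 each). The groups were separated by 1.15, while the arrays of a group differed by 0.05 in the controls and 0.15 in the morphants. A higher placing of both morphant arrays was found for 25.1% of all probe sets. In linear units mybl1 read 353 and 367 in controls against 812 and 903 in morphants. All 4 values were above the tag controls, so the change does not rest on a dim reading. The log2 fold change was 1.25 ± 0.17 (SE), or 2.38-fold with a 95% interval from 1.78-fold to 3.18-fold (limma, Benjamini-Hochberg adjusted p = 0.0312). Calls of this direction took up 2.49% of all probe sets, and mybl1 stood at place 188 of the 11626 by p. Some 2.97% of probe sets had a larger positive change.

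The size of the mybl1 change ran from 1.12 to 1.33 over the settings, and its call was not steady. Changes of the filter, the variance prior, the moderation or the replicate block cannot move this size in a balanced design. Array weights left it at 1.25. Only the scaling, an added constant and leaving out an array put its size to a test. The adjusted p was 0.108 without control replicate 1 (change 1.22), 0.107 without control replicate 2 (1.28), 0.116 without morphant replicate 1 (1.33) and 0.121 without morphant replicate 2 (1.17). It was 0.140 with the dim probe sets kept in the test. An exact two-sided permutation test over 2 against 2 arrays gave p = 0.333 for mybl1 and for myb, which is the smallest value this design allows.

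**Figure D1:**
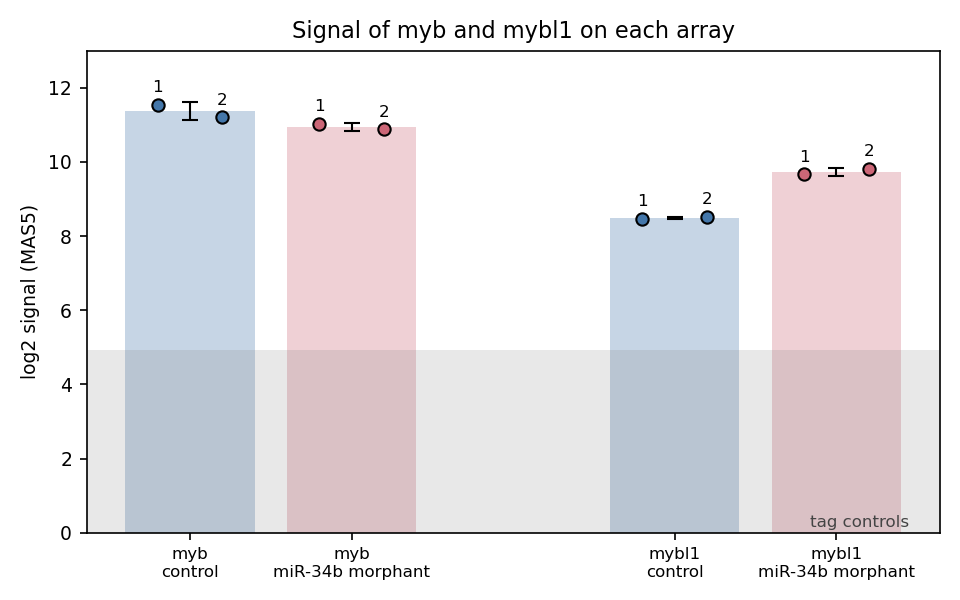
Log2 signal of the myb and mybl1 probe sets on each array; bars are group means, error bars the SD over 2 arrays, points the arrays with their replicate numbers, and the grey band reaches up to the brightest tag control, 4.93. The myb points run from 10.88 to 11.54 with the control arrays on top, and the mybl1 points rise from about 8.5 in the controls to 9.67 and 9.82 in the morphants.

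The signals of mybl1 and myb were also set against each other within each array. A difference taken on a single array does not depend on how that array was scaled. The log2 signal of mybl1 minus that of myb was −3.07 and −2.69 in controls against −1.37 and −1.07 in morphants. The groups did not overlap, and the mean difference between them was 1.67 (exact two-sided permutation p = 0.333, the smallest possible with 4 arrays). The test cannot pass a threshold of 0.05 in this design, and since probe sets differ in how brightly they read, the values say nothing of which transcript has more copies.

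**Figure D2:**
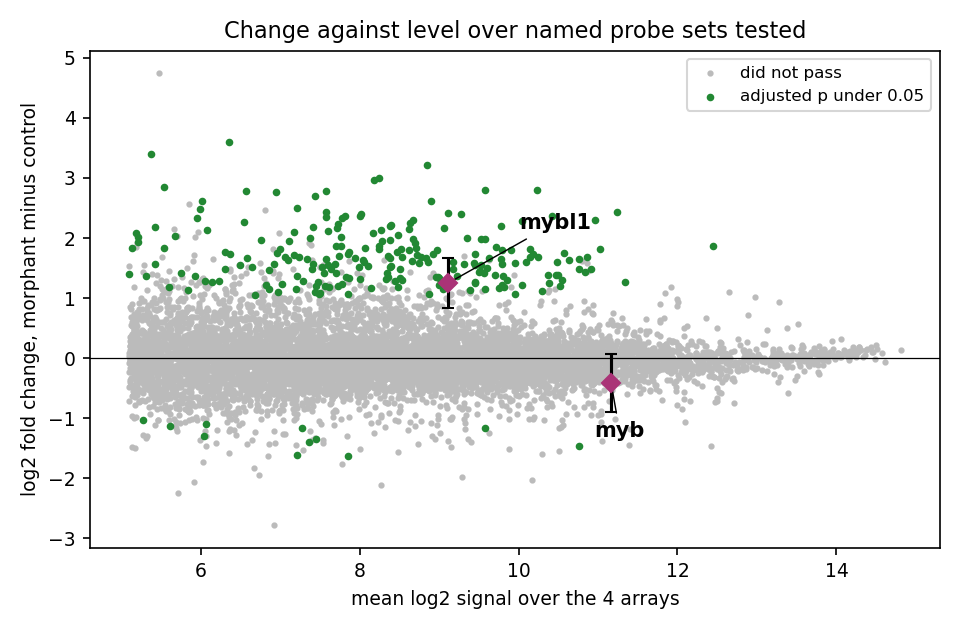
Log2 fold change (morphant minus control) against the mean log2 signal over the 4 arrays for the named probe sets tested; green points passed at an adjusted p under 0.05, and diamonds with 95% intervals mark the members. The mybl1 diamond at 1.25 lies among the green points, and the myb diamond at −0.42 lies among the grey ones with an interval that includes 0.

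The other family members did not pass. The log2 signals of mybl2b were 7.85 and 7.76 in controls against 7.28 and 7.70 in morphants (−0.32 ± 0.20, SE, limma adjusted p = 0.490). For its paralog mybl2a they were 7.47 and 7.54 against 7.58 and 7.15 (−0.14 ± 0.21, adjusted p = 0.785). The groups of mybl2a overlapped, and those of mybl2b did not. Among more distant proteins with Myb-type repeats, the splicing factor cdc5l had 0.03 ± 0.17, and the telomere-binding terf1 and terfa had −0.42 ± 0.23 and −0.22 ± 0.18. A second probe set of terf1 gave 0.20, of the opposite sign, with groups that overlapped. Of the 5 relatives of myb and mybl1 tested, 0 were called by limma and 0 had an unadjusted p under 0.05, with a median log2 fold change of −0.22, where the median over all 7345 named genes tested was −0.02. Over named genes, each taken by its brightest probe set, 2.71% were called higher and 0.15% lower. The counts of calls per list given here are to be read against these shares. Counts at an unadjusted p under 0.05 are to be read against 2057 of the 11626 probe sets tested.

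Proteins that work with MYB or modify it showed 1 call among 22 tested. The genes of the CREB-binding protein, an acetyltransferase that binds MYB, gave −0.08 ± 0.18 for crebbpa and −0.0009 ± 0.17 for crebbpb. In a second probe set crebbpb had −0.26 ± 0.18, with both morphant arrays below both control arrays, and did not pass. The partner factors of the C/EBP family, with which MYB shares myeloid promoters, gave 0.004 ± 0.16 for cebpa, 0.06 ± 0.17 for cebpb and −0.22 ± 0.18 for cebpd. The gene that rose was pias4b, a SUMO ligase of the PIAS family, with log2 signals of 6.72 and 5.64 in controls against 8.90 and 9.04 in morphants (2.78 ± 0.37, limma adjusted p = 0.0316). Its adjusted p was 0.135 without morphant replicate 1 and 0.136 without morphant replicate 2. Its relative pias4a had −0.05 ± 0.19 in its brightest probe set and between −0.06 and 0.70 in 3 others, none past the threshold. The proto-oncogene ets1, a factor that binds DNA beside MYB, had −0.56 ± 0.18 (adjusted p = 0.208). For this list the median was −0.08, with 6 genes above 0 and 16 below.

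MuvB is the core of the DREAM complex, which represses cell cycle genes in quiescent cells and joins with mybl2 to activate them. Of 14 genes of this group tested, 1 rose and 0 fell, and the median was −0.04. The subunits lin9, lin37 and lin52 had 0.29 ± 0.18, 0.39 ± 0.17 and 0.24 ± 0.16, and lin54, the DNA-binding subunit, had −0.11 ± 0.17. None of the 3 positive values passed (limma adjusted p between 0.314 and 0.519). Over the 14 genes of the list, both morphant arrays lay above both control arrays in 6 and below them in 7. Among all probe sets tested, these placings were found for 25.1% and 24.7%. The histone chaperone rbbp4 had −0.24 ± 0.16 and the pocket protein rbl1 −0.17 ± 0.17. foxm1, a forkhead factor that follows mybl2 on mitotic promoters, had −0.59 ± 0.29 (adjusted p = 0.371). The gene that rose was e2f5, an E2F factor shared with the multiciliation list (2.26 ± 0.28, limma adjusted p = 0.0283). It read 5.12 and 5.72 in controls against 7.92 and 7.44 in morphants. Its close relative e2f4 had 0.11 ± 0.16 in its brightest probe set. Another probe set of e2f4 gave −0.10 ± 0.32, of the opposite sign, with groups that overlapped. The call of e2f5, and with it the only one of this list, was lost without control replicate 1 (1.96, adjusted p = 0.0589), without morphant replicate 1 (2.02, 0.122) and without morphant replicate 2 (2.50, 0.0964).

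Of 13 regulators of multiciliation and ciliogenesis tested, 6 rose, 0 fell and 7 did not pass, and the median was 0.36. Those that rose were foxn4, a forkhead factor of multiciliated cells (3.22 ± 0.21), stil and plk4, which start new centrioles (2.50 ± 0.18 and 1.38 ± 0.16), e2f5, gmnn, the inhibitor geminin (1.83 ± 0.25), and the ciliary factor rfx2 (1.49 ± 0.19). Their adjusted p-values in limma ran from 0.0153 to 0.0320. A second probe set of foxn4 gave 2.71 (adjusted p = 0.0286). Further probe sets of foxn4, e2f5 and rfx2 had control means below the level of the filter on dim probe sets (5.10) and were tested only through their morphant values, so no size is read from them. Of these, the ones of foxn4 and e2f5 read 4.11 and 3.73 on control replicate 1, within the range of the tag controls there. The one of rfx2 had a control mean of 5.095, just under the level of 5.098, and its groups overlapped. It did not pass (limma adjusted p = 0.582), so it did not repeat the call of rfx2. The change of mybl1, 1.25, was below the lowest of these 6 values, a difference that was not tested. The E2F partners tfdp1a and tfdp1b had 0.16 ± 0.17 and 0.03 ± 0.18. rfx1b, another RFX factor, had −0.46 ± 0.16 (adjusted p = 0.240). Without control replicate 1 the list had 2 calls, without control replicate 2 it had 4, and without either morphant array it had 0. The best-known regulators of the pathway, among them gmnc, mcidas, ccno, foxj1a and foxj1b, have no probe set under their names here.

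Most structural markers of multiciliated cells moved with mybl1. Of the 12 tested, 10 were called higher and 0 lower, and the median was 1.66. The 1 marker below 0 was dnali1 (−0.36 ± 0.27), whose groups overlapped. Leaving out control replicate 1 left 4 calls, leaving out control replicate 2 left 3, and leaving out either morphant array left 0. Their mean log2 signal was 8.87 and 8.70 in controls against 10.40 and 10.47 in morphants. Against this mean, a comparison chosen after the values were seen, the log2 signal of mybl1 stood at −0.40 and −0.18 in controls and at −0.74 and −0.65 in morphants. The marker mean was thus 1.65 higher in the morphants where mybl1 was 1.25 higher. Pronephric tubule markers had 2 of 8 called higher, the chloride channel clcnk (1.55 ± 0.21) and the homeobox gene emx1 (1.95 ± 0.31). In all, 6 were above 0 and 2 below, slc20a1a (−0.34 ± 0.20) and trpm7 (−0.08 ± 0.20). The list mean was 8.10 and 8.20 in controls against 8.998 and 8.72 in morphants. Neural markers had 0 calls in limma among 10, with 5 at an unadjusted p under 0.05, and list means of 7.61 and 7.63 in controls against 8.11 and 8.01 in morphants. Erythroid and epidermal markers had 0 calls among 6 and 0 among 8, with 1 in each list at an unadjusted p under 0.05 and medians of −0.25 and 0.05. The erythroid list mean was highest on control replicate 1, at 8.90 and 7.78 in controls against 7.93 and 8.15 in morphants. The part of the makeup of the sorted cells in the mybl1 value was not tested.

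**Figure D3:**
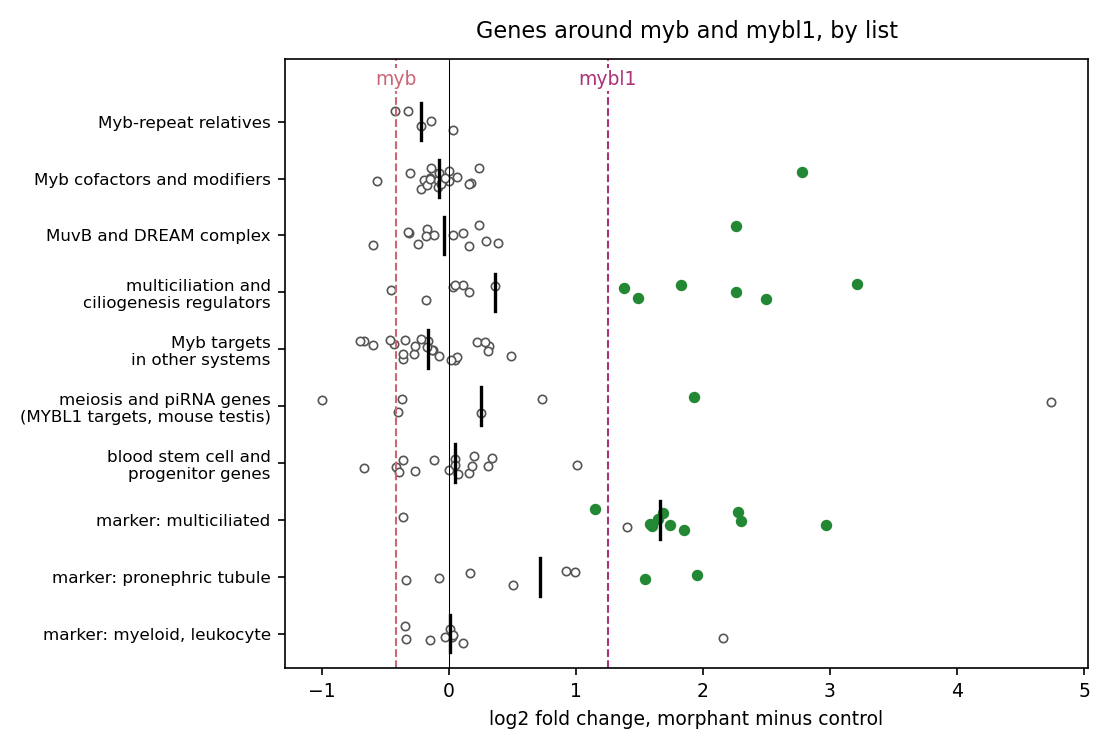
Log2 fold change (morphant minus control) of the tested genes of each list, 1 point per gene; filled green points passed at an adjusted p under 0.05, black bars are list medians, and dashed lines mark myb at −0.42 and mybl1 at 1.25. The points of ddx4 at 4.74 and tdrd6a at 1.93 rest on controls below the filter's level. Filled points are most frequent among multiciliated markers, 10 of 12, and multiciliation regulators, 6 of 13.

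Genes described in other systems as targets of MYB gave no call. Of 24 tested, 0 passed in limma, 1 had an unadjusted p under 0.05, and the median was −0.17 with 8 genes above 0 and 16 below. The gene with the smallest p was myca, a MYC proto-oncogene, at 6.80 and 6.86 in controls against 7.43 and 7.19 in morphants (0.49 ± 0.18, adjusted p = 0.243). The methionine adenosyltransferase gene mat2aa had −0.46 ± 0.18 (adjusted p = 0.287). The lowest values were those of the cell cycle gene ccne1, −0.70 ± 0.31, and of the stem cell factor receptor kita, −0.67 ± 0.33. In both, the morphant arrays lay below the control arrays, a placing found for 24.7% of all probe sets tested, and neither passed. The groups nearly touched. kita read 5.35 on control replicate 2 against 5.342 on morphant replicate 1, and ccne1 read 7.285 on control replicate 1 against 7.202 on morphant replicate 1.

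Blood stem and progenitor cells are other cells in which the myb promoter is known to be active. Of 16 genes of that list tested, 0 passed in limma and 1 had an unadjusted p under 0.05. The median was 0.05, with 10 genes above 0 and 6 below. The homeobox gene meis1a came nearest to passing, at 8.05 and 7.92 in controls against 9.04 and 8.95 in morphants (1.01 ± 0.16, adjusted p = 0.0514). A second probe set of meis1a gave 0.67 ± 0.24 (limma adjusted p = 0.242). The lymphoid factor ikzf1 had −0.41 ± 0.21 and the endothelial and blood factor fli1 −0.39 ± 0.18, values close in size to that of myb, and neither passed. In another probe set fli1 had −0.24 ± 0.17 and did not pass. runx1, needed for blood stem cells to form, had 0.16 ± 0.19, and spi1b, the myeloid factor PU.1, had 0.05 ± 0.17 in its brightest probe set. A second probe set of spi1b gave −0.21 ± 0.17 and did not pass. The myeloid and leukocyte markers had 0 calls among 9 in limma. The 1 at an unadjusted p under 0.05 was marco, with a control mean of 4.58, below the filter's level of 5.10. It was tested only through its morphant values, so its test supports nothing here. The lysozyme gene lyz stayed between 13.95 and 14.14 on the 4 arrays.

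Genes placed under MYBL1 in mouse testis were mostly too dim to follow. Of 17 with a probe set, 7 were tested. Among these, tdrd6a, a Tudor-domain gene of germ granules, and ddx4, a germ cell helicase gene, had control means of 4.25 and 3.11, below the filter's level of 5.10, and were tested only because their morphant values are high, so their tests support nothing here. tdrd6a read 4.02 and 4.48 in controls against 6.02 and 6.35 in morphants, with an adjusted p of 0.0260 that rose above the threshold without any 1 of the 4 arrays (0.0582 to 0.111). ddx4 read 1.81 and 4.40 in controls against 7.97 and 7.72 in morphants (adjusted p = 0.0580). On control replicate 1 both were within the range of the tag controls, and the fitted difference of ddx4 was 3.45 without that array and 6.04 without control replicate 2, so no size is given for either. The synaptonemal complex gene sycp1 had 0.74 ± 0.16 in its brightest probe set (adjusted p = 0.0985), while a second probe set rose by 2.76 ± 0.24 (adjusted p = 0.0183). The 2 probe sets of sycp1 thus gave different sizes and different calls. In the other direction, cremb, a CREM-type transcription factor gene, gave −0.999 ± 0.30, short of the threshold (adjusted p = 0.186).

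The genes most like each member were found by the root mean square distance between their values and the member's over the 4 arrays, each taken about its own mean, among 7345 named genes. This measure is set by the same 4 arrays and is a description. For mybl1 the nearest was erich3, at a distance of 0.013, with 9.73 and 9.80 in controls against 10.95 and 11.07 in morphants. The next were irak1bp1, paqr5a, dcdc2b and zp3d.2, at distances of 0.026 to 0.043, and 29 genes lay within 0.1. For myb the nearest were mkln1 at 0.012, zgc:174863, pik3c2b, yipf1 and mier3a, the last at 0.026. Within 0.1 of myb lay 162 of the 7345 named genes. The distance is not scaled to the size of a gene's change, so this count and that of mybl1 cannot be compared.

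The genes beside each member in the RefSeq order of the zebrafish genome (assembly GRCz12tu, used for order only) did not pass. Next to myb, hbs1l and aldh8a1 had −0.55 ± 0.26 and −0.69 ± 0.28 on one side (adjusted p = 0.368 and 0.295), and mtfr2 and armc1l had 0.10 ± 0.27 and −0.03 ± 0.16 on the other. Next to mybl1, rrs1 and pola1 had −0.32 ± 0.22 and 0.15 ± 0.25, and tcf24 and sgk3 on its other side are named by no probe set. The rise of mybl1 had no counterpart in the neighbours that could be read.

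**Figure D4:**
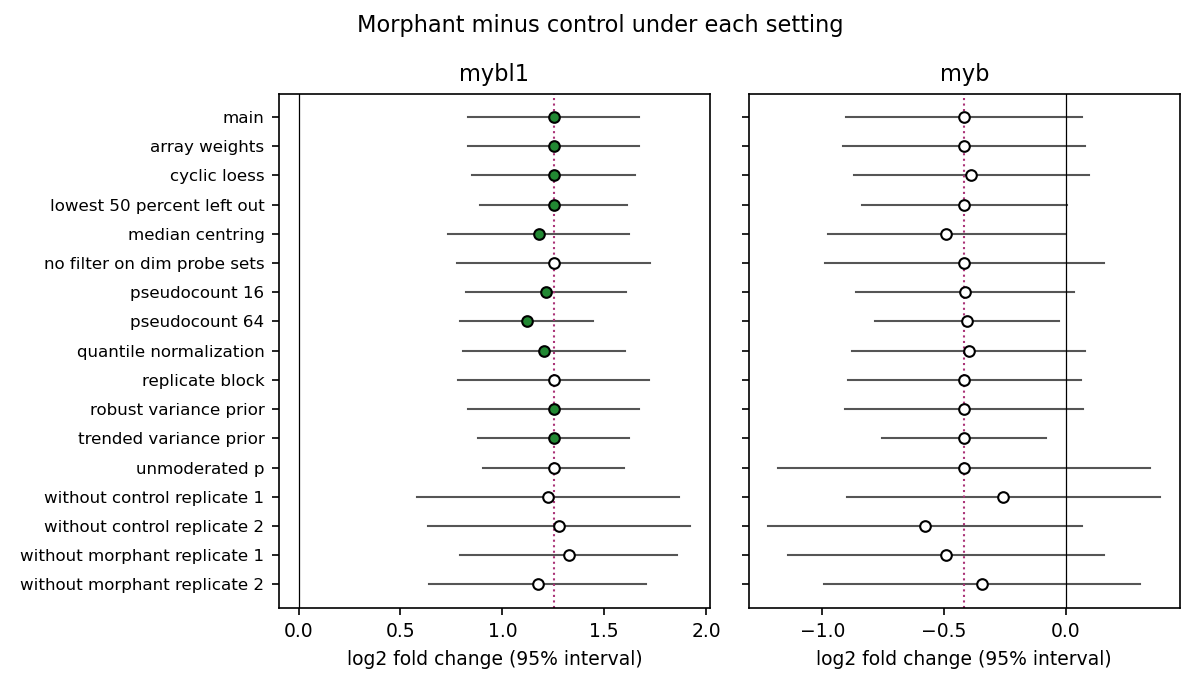
Log2 fold change (morphant minus control) of myb and mybl1 with 95% intervals as fitted and under each alternative processing, filled where the adjusted p was under 0.05. The mybl1 values stay between 1.12 and 1.33 and lose the call under 7 of 16 alternatives, and the myb values stay between −0.58 and −0.26 and pass under none.

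In the settings plot, the mybl1 change moved by less than its own 95% interval under changes of scaling, added constant or single arrays. The other alternatives left it at 1.25 and, array weights aside, could not move it. Over all 16 alternatives the adjusted p of mybl1 in the linear model lay between 0.00325 and 0.245. Over the same alternatives the adjusted p of myb lay between 0.167 and 0.808.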

How the data were processed

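RNA was amplified from 100 ng and hybridised to Affymetrix zebrafish arrays, 1 per sorted sample, 2 per group, per the labels' protocols. The authors deposited log2 signals, made with MAS5 per the submitters' processing notes, which give no version, and these were used as deposited. After 115 control probe sets and the lowest 25% by mean over all arrays had been left out, the log2 signals of 11626 probe sets entered a linear model in limma 3.58.1, run under R 4.3.3 (lmFit and eBayes, group as the only term), with Benjamini-Hochberg adjustment over all of them and a threshold of 0.05. Single values were also put to an exact permutation test. Gene names came from the platform annotation, in which 10795 probe sets have 1 symbol, 135 several and 4572 none, and 10711 were updated through Entrez numbers (1 symbol changed). A gene of a list is given by its brightest probe set. Members and lists were chosen with earlier results of these data known. Named genes are the called genes and the 2 with the smallest p of each list, family members and direct partners, and the 5 most like each member, and further genes were named after their values were seen. The 2 replicates per group are separate biological sets per the series' design. Alternatives changed the filter, an added constant (16 or 64), the scaling, the variance prior, array weights, a replicate block and single arrays. The fit was tested on simulated data.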

Additional observations from a re-analysis of the deposited data

Results flagged for a closer look

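Among listed genes left out as too dim, a pair had morphant values above both of their control values and above every tag control of all arrays. tp73, a p53 family gene with a role in multiciliation in mouse, read 4.16 and 4.23 in controls against 5.55 and 5.25 in morphants, a difference of 1.203. tdrd7a, a Tudor-domain gene of germ granules, read 4.43 and 4.30 against 5.46 and 5.41, a difference of 1.07. On control replicate 1 both genes read below the brightest tag control there, 4.93. They were picked in part by the size of the difference, so no size is read from it. With dim probe sets kept in the limma fit, their adjusted p-values were 0.166 and 0.157, so neither passed.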

How the results depend on the processing

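The count of 304 probe sets past the threshold (290 higher, 14 lower) became 582 with 64 added to the signals (500 higher, 82 lower), 586 with a trended variance prior (483 and 103), 0 in limma with no filter and 0 with unmoderated p-values. Leaving out an array gave 0 to 54. The mybl1 change of 1.25 lost its call with no filter (1.25, adjusted p = 0.140) and unmoderated (1.25, 0.245), and without any one array (1.17 to 1.33), where the lone array is assumed to vary like the other group. The sources used here do not say whether replicate numbers pair the arrays, and the arrays were treated as unpaired. The correlation of same-numbered deviations was 0.02, which cannot settle how the sets were made. With the replicate block in limma, mybl1 had 1.25 and an adjusted p of 0.0549, and 207 probe sets passed. Under the other 9 alternatives mybl1 kept its call. myb passed under none of its 16. The difference between mybl1 and myb ran from 1.48 to 1.86. Leaving out an array moved mybl2a from −0.352 to 0.0736 (without morphant replicate 2) and crebbpa from −0.192 to 0.0258 (without control replicate 2), with 0.00785 without morphant replicate 2, and neither was called. Of the 13 called genes named by the rule, 13 lost the call with no filter, unmoderated, or without either morphant array, 10 without control replicate 1, 8 without control replicate 2, 7 with the replicate block (among them e2f5, adjusted p = 0.0516, which leaves the MuvB list with 0 calls, and rfx2, 0.0540), 2 with quantile normalization and 1 with cyclic loess. With the lowest 50% left out, 10 kept it and 3 were not tested. The 13 include the 5 genes most like mybl1, picked for values like its own, so their calls are not separate from its call. All of these lost the call with the replicate block, as mybl1 did. The 13 also include tdrd6a, tested only through its morphant values. The losses with quantile normalization were tdrd6a and paqr5a, and that with cyclic loess was paqr5a. These counts are a description. With all arrays kept, the genes that gained a call were ddx4 and meis1a. ddx4 gained it with 16 or 64 added and with the trended prior. It was tested only through its morphant values, so these calls support nothing and no size is read from them. In its brightest probe set, meis1a gained a call with 16 or 64 added (0.97 and 0.86), with the trended prior and with the lowest 50% left out (1.01 each). Another probe set per member could not be tried, since each has 1. The cause of these losses was not tested.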
